A study of Mus musculus with 5 samples.

Results

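The genes described here are 10 markers of the loop of Henle and the distal tubule, the nephron segments between the proximal tubule and the collecting duct: Umod, Slc12a1, Slc12a3, Kcnj1, Cldn16, Pvalb, Trpm6, Wnk4, Sim1 and Pou3f3. They were chosen by name, and all 10 of 10 are among the 18044 genes of the deposited table. RNA came from wild-type C57BL/6 mouse embryos at E18.5, late in gestation. The pelvis-kidney junctions of all embryos were pooled, dispersed with collagenase and sorted on an antibody against the cation channel HCN3, and the design sets HCN3+ cells, which the submitters call urinary tract pacemaker cells, against HCN3- cells. There are 2 libraries labelled HCN3-positive and 3 labelled HCN3-negative, which share strain and stage, and the labels name no treatment. Nothing in the labels says that libraries of a group came from separate pools, so the tests see only sample-to-sample spread, which could be purely technical.

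The thick ascending limb of the loop of Henle reabsorbs salt without water. Its apical membrane carries the sodium-potassium-chloride cotransporter NKCC2 (Slc12a1) and the potassium channel ROMK (Kcnj1), and its tight junctions hold claudin-16 (Cldn16). The cells also secrete uromodulin (Umod), the main protein of normal urine. The distal convoluted tubule that follows uses the thiazide-sensitive cotransporter NCC (Slc12a3), which is regulated by the kinase WNK4 (Wnk4), takes up magnesium through the channel TRPM6 (Trpm6), and in its first part can hold the calcium-binding protein parvalbumin (Pvalb). Pou3f3 encodes BRN1, a POU-domain transcription factor needed for the loop to form, and Sim1 encodes a transcription factor of the bHLH-PAS family.

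Depth was 24588864 to 39034478 gene reads per library. The libraries did not divide by label. Summed macrophage markers (9 of 10 found, all 9 with reads in every library) stood at normalized counts of 310513 and 454622 in HCN3-positive 1 and HCN3-negative 2, and at 797 to 1614 in the other 3. Summed smooth muscle markers (10 of 10) stood at 7083 and 5221 in that pair and at 28907 to 150496 in the others. Podocyte and erythroid lists peaked in HCN3-negative 3. Hcn3 itself was at 0 reads in HCN3-positive 1, at a normalized count of 44.5 in HCN3-positive 2, and at 103, 32.2 and 41.9 in HCN3-negative 1, 2 and 3, so its transcript did not follow the labels. Groups are called positive-labelled and negative-labelled below, and each direction rests on those labels. The deposited table's own comparison divides the libraries differently from the labels, as described further below. In whole sorted populations, fewer cells of a type and less RNA per cell cannot be told apart.

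The 250 bases before each start in the RefSeq promoter table were searched on both strands for motifs of factors known from the distal nephron, to show the letters that stand beside these genes. All 10 members matched the RefSeq promoter table (GRCm38.p6), with 11 starts because Pvalb has 2. These starts are not always the gene ends printed below, which come from GENCODE: that of Trpm6 lies 253 bases before its gene start, and 6 of the 11 lie inside their genes, by up to 21492 bases for Kcnj1. The HNF1 motif GTTAAT, 1 arm of that factor's palindrome, was present before 1 of the 11 starts, that of Umod, against 6.43% of 32851 promoters. The TFAP2 motif GCCNNNGGC, which reads the same on both strands, was present before 5 of the 11, namely Slc12a3, Wnk4, Trpm6 and both starts of Pvalb, against 13.7% of promoters. The POU octamer ATGCAAAT and the ERR site TCAAGGTCA were found before 0 of the 11, against 1.60% and 0.387%. A match is only a description of the sequence. The stretches below carry the Umod match and 1 match for each distal convoluted tubule gene with appreciable reads, with the motif in capitals. They lie at chr7:119479429-119479494 (minus strand), chr8:94329105-94329173, chr11:101260370-101260438 and chr19:18749632-18749700 (plus strand), in the order printed.
Umod: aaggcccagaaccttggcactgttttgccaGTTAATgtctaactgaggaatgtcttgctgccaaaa
Slc12a3: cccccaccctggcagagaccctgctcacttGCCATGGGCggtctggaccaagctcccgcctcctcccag
Wnk4: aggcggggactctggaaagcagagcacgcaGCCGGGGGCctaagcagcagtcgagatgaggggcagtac
Trpm6: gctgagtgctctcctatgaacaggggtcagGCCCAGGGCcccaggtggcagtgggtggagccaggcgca

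Of all members, the thick ascending limb genes Slc12a1 and Kcnj1 gave the most reads, and the library labelled HCN3-positive 1 was the highest for the 4 genes of this segment except Umod. Slc12a1 (chromosome 2, 125152505 to 125230002, plus strand, mm10) had normalized counts (reads over a library-wide size factor) of 29812 and 12657 in positive-labelled libraries 1 and 2. In negative-labelled libraries 1, 2 and 3 it had 15692, 13291 and 12035. One library stood apart and the other 4 lay close together, so the groups overlapped. The means were 21235 ± 12130 (SD, n = 2) and 13673 ± 1858 (SD, n = 3). Kcnj1 (chromosome 9, 32372493 to 32399197, plus strand) had 5803 and 3418 against 2873, 3678 and 2354. Its library labelled HCN3-negative 2 lay above HCN3-positive 2, and the groups overlapped.

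Umod (chromosome 7, 119462711 to 119479282, minus strand) was the most even of the members. It had normalized counts of 2505 and 2625 in the positive-labelled libraries, against 2111, 2291 and 1493 in negative-labelled ones. The groups did not overlap, but the highest library was only 1.76 times the lowest. An antisense gene, Gm44588, covers 19.5% of the annotated Umod exon bases, and reads of both cannot be told apart without strand. Cldn16 (chromosome 16, 26463135 to 26482765, plus strand) had 775 and 464 against 405, 251 and 174. Here too every positive-labelled library lay above every negative-labelled library, and the highest was 4.46 times the lowest.

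Among the distal convoluted tubule genes, no member separated the labels. Slc12a3 (chromosome 8, 94329201 to 94366214, plus strand) had 3246 and 1179 in the positive-labelled libraries, and 1641, 2446 and 1116 in negative-labelled ones. Its highest values were in HCN3-positive 1 and HCN3-negative 2, the pair with macrophage transcripts. Wnk4 (chromosome 11, 101260567 to 101277409, plus strand) had 1449 and 521 against 655, 619 and 514, so that only 1 library stood apart. The antisense gene Gm11615 covers 7.38% of its exon bases.

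Trpm6 (chromosome 19, 18749983 to 18892511, plus strand) varied most among the members that passed the filter on low values, 6.63-fold between libraries. It had 398 and 111 in the positive-labelled libraries, and 159, 59.9 and 235 in negative-labelled ones, from 54 to 282 reads. Its order of libraries was unlike that of the other members, with HCN3-negative 2 the lowest. Pvalb (chromosome 15, 78191114 to 78206400, minus strand) had 8 reads in the library labelled HCN3-negative 2, a normalized count of 8.88, and 0 reads in the other 4. At this depth 3 reads equal normalized counts of 2.23 to 4.23, depending on the library. Pvalb was the only member under the filter, a mean normalized count of 5 over the libraries, and was not tested, which leaves 9 of 10.

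Over all 5 libraries, the transcription factor genes Sim1 and Pou3f3 had the largest log2 fold changes between labels in the limma fit described below. They stood at 1.46 and 1.24, with Cldn16 close at 1.20. That order depended on the libraries. Without HCN3-positive 2, Trpm6 (1.59) and Cldn16 (1.57) lay above Sim1 (1.52) and Pou3f3 (0.89). Sim1 (chromosome 10, 50894754 to 50989152, plus strand) had normalized counts of 1056 and 976 in the positive-labelled libraries, and 526, 418 and 226 in negative-labelled ones. Both positive-labelled libraries lay close together and well above the others. These libraries differ in their macrophage and muscle transcripts. They are alike in the mean level of the general epithelial list, 0.57 and 0.58 above the mean of the libraries (log2). The part of either in the Sim1 level was not tested. The means were 1016 ± 56.3 (SD, n = 2) and 390 ± 152 (SD, n = 3). Pou3f3 (chromosome 1, 42695768 to 42703176, plus strand) had 622 and 1000.0 against 471, 360 and 220, again without overlap. It was highest in the library labelled HCN3-positive 2, which carries smooth muscle transcripts, and not in HCN3-positive 1.

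**Figure D1:**
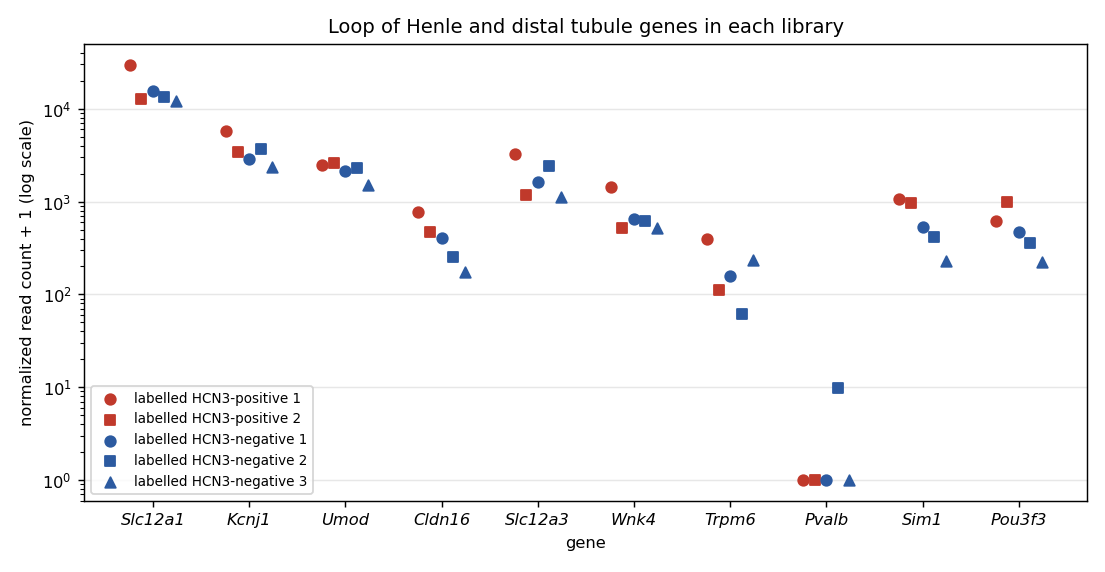
On the vertical axis, the normalized count plus 1 (log scale) of the 10 genes (horizontal axis), with 1 point per library, positive-labelled in red and negative-labelled in blue. Umod, Cldn16, Sim1 and Pou3f3 have both red points above all blue points, the other genes do not, and Pvalb lies at 0 reads in all libraries but HCN3-negative 2.

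Per kilobase of the longest coding transcript, which allows levels to be compared between genes, the order of the mean normalized count per kilobase was Slc12a1 (3523), Kcnj1 (1179), Umod (840), Slc12a3 (447), Cldn16 (353), Wnk4 (183), Sim1 (87.1), Pou3f3 (72.2), Trpm6 (29.6) and Pvalb (1.82). Slc12a1 lay above Kcnj1, Kcnj1 above Umod and Umod above Slc12a3 in 5 of 5 libraries. The neighbours Slc12a3 and Cldn16, Wnk4 and Sim1, Sim1 and Pou3f3, and Pou3f3 and Trpm6 kept that order in only 4 of 5 libraries. With all annotated exons merged, Slc12a3 would stand at 173 per kilobase, below Cldn16 and Wnk4 (353 and 181), so its place depends on the transcript model. The mRNA of the thick ascending limb cotransporter was thus the highest of the set in each library.

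For the comparison of the labels, limma was fitted to log2(normalized count + 1) over 16579 genes, and 0 of the 9 members tested passed an adjusted p of 0.05. Over all genes limma called 0% as higher and 0% as lower, with 0.947% under an unadjusted p of 0.05, so the absence of calls is not particular to these members. On recovered reads edgeR also called 0 genes and DESeq2 called 10, none of them a member. Positive over negative, the log2 fold change exceeded 0 for 9 of the 9 members, beside 47.5% of all genes tested. Their median was 0.61, beside -0.03 for all genes. Every positive-labelled library lay above every negative-labelled library for 4 of 9 members, beside 5.34% of all genes.

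Sim1 had the widest distance, with a log2 fold change of 1.46 (SE 0.49, 95% interval 0.23 to 2.69) and an adjusted p of 1.00 in limma (the intervals are not adjusted for the number of genes). For Pou3f3 the value was 1.24 (SE 0.51, 95% interval -0.06 to 2.53) and for Cldn16 1.20 (SE 0.56, 95% interval -0.23 to 2.62). The remaining members lay between 0.25 for Slc12a3 and 0.68 for Trpm6, and their intervals included 0. For Slc12a1 the interval ran from -0.53 to 1.56, so its difference could not be told from 0 with these libraries.

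The size of the difference rested on single libraries to different degrees. Without the library labelled HCN3-positive 1, the log2 fold change was above 0 for 5 of 9 members, beside 51.1% of all genes, with a median of 0.23. Slc12a1, Slc12a3, Wnk4 and Trpm6 then turned to -0.10, -0.48, -0.19 and -0.24. Kcnj1 went from 0.61 to 0.23 and stayed above 0. Sim1 was then at 1.41, Pou3f3 at 1.58, Cldn16 at 0.83 and Umod at 0.44. Without the library labelled HCN3-positive 2 the median was 1.13, since the remaining positive library holds the highest value of 7 of the 9 members, beside 25.4% of all genes that are highest there. The library labelled HCN3-negative 3 was the lowest for 8 of 9 members, beside 14.6% of all genes, and without it the median was 0.45, Slc12a3 stood at -0.03 and Umod went from 0.41 to 0.22. Without HCN3-negative 2, Trpm6 went from 0.68 to 0.12 and Slc12a3 from 0.25 to 0.53, and without HCN3-negative 3 Trpm6 stood at 1.10. Over the fits without 1 library, Sim1 ran from 1.11 to 1.72, Pou3f3 from 0.89 to 1.58 and Cldn16 from 0.83 to 1.57. No member passed in limma with any of these libraries left out.

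**Figure D2:**
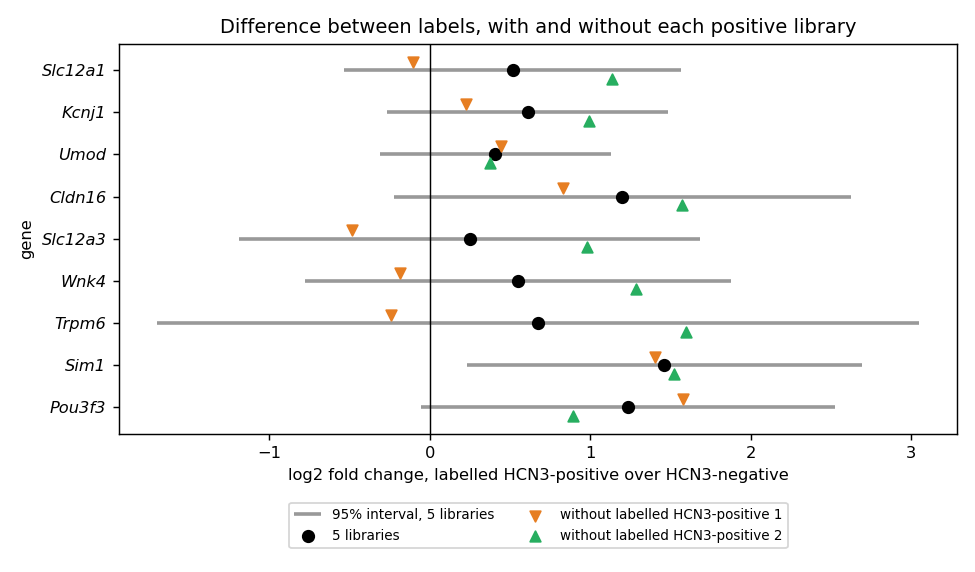
Log2 fold change, labelled HCN3-positive over labelled HCN3-negative (horizontal axis), of the 9 members tested (vertical axis). Black points and grey bars give the value and its 95% interval from all 5 libraries, and triangles the value without HCN3-positive 1 (orange) or HCN3-positive 2 (green); Slc12a1, Slc12a3, Wnk4 and Trpm6 lie below 0 without HCN3-positive 1, while Sim1 lies at 1.41 and 1.52 in the 2 reduced fits.

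The members differed from each other in how their levels ran over the libraries. Over the 5 libraries, the root mean square difference between centred log2 levels was smallest for Slc12a1 and Wnk4, at 0.09, among 36 pairs. Slc12a1 and Kcnj1 had 0.26. Cldn16 and Sim1 had 0.27, and Sim1 and Pou3f3 0.28, whereas Slc12a1 and Pou3f3 lay 0.74 apart. The 8 widest pairs included 6 with Trpm6, up to 1.20 with Pou3f3. Cldn16 lay about as far from Pou3f3 (0.46) as from Slc12a1 (0.45) and Kcnj1 (0.46). Slc12a1, Kcnj1 and Wnk4 were highest in HCN3-positive 1, as was Slc12a3, which also lay above its mean in HCN3-negative 2 (by 0.88 and 0.47, log2). For Sim1 and Pou3f3, as for Umod and Cldn16, the highest values were those of HCN3-positive 1 and 2.

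Transcripts of other cell types also lay to 1 side by label, some as the members did and some opposite. All 9 general epithelial markers (Epcam, Cdh1, Cdh16, Pax8, Pax2, Krt8, Krt18, Ap1m2 and Esrp1) had reads in every library, and 9 of 9 lay above 0 in log2 fold change (median 0.91). Their summed normalized counts were 56685 to 66191 in the positive-labelled libraries and 22925 to 41967 in negative-labelled ones. Genes on the collecting duct principal cell list (16 of 16 with reads in every library) summed to 35267 to 85146 against 13109 to 28792, and 15 of 16 lay above 0 with a median of 1.40. In HCN3-positive 2 the largest parts of that sum were Calb1 (11330), also on the distal convoluted tubule list, and Wnt11 (6282). Without Calb1, Wnt11 and Ret (3273), the rest of the sum in HCN3-positive 2 lay below that in HCN3-negative 2. The separation of the sums by label thus rested on these genes. Aqp2 overlapped between labels, at 34676 and 3248 against 1033, 4826 and 2339. Others of the list overlapped too, while some, such as Hsd11b2 and Gata3, did not. Intercalated cell markers (7 of 7 with reads in every library) summed to 2551 to 28239 against 2443 to 6074. Without Slc4a1, which is also on the erythroid list, the sums were 2217 to 27148 against 1313 to 5718. Proximal tubule markers ran the other way: 14 of 14 lay below 0 with a median of -2.01, at sums of 8449 to 13588 against 19111 to 62945, with Slc5a2 at 0 in the library labelled HCN3-positive 1. Immediate early and heat shock genes known to respond to tissue dissociation also ran the other way. All 10 had reads in every library and 10 of 10 lay below 0 (median -1.85), 6 of them at an unadjusted p under 0.05 in limma, at sums of 11856 to 44618 against 55666 to 140440. Stromal markers (10 of 10 below 0, median -0.85) summed to 11975 to 124958 against 11796 to 226485, and endothelial markers (7 of 7 below 0, median -1.09) to 6883 to 28678 against 6702 to 102103. Podocyte markers (7 of 7) and nephron progenitor markers (6 of 7) lay below 0 as well, with medians of -1.08 and -1.19. Urothelial markers lay above 0 for 7 of 10, and erythroid markers below 0 for 5 of 6. Such counts also arose where the labels were not followed. Of the macrophage markers 8 of 9 lay above 0 (median 1.39), although their sums divided the libraries across the labels. The part of these transcripts in the members' levels was not tested, and the ratios that follow are descriptions.

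**Figure D3:**
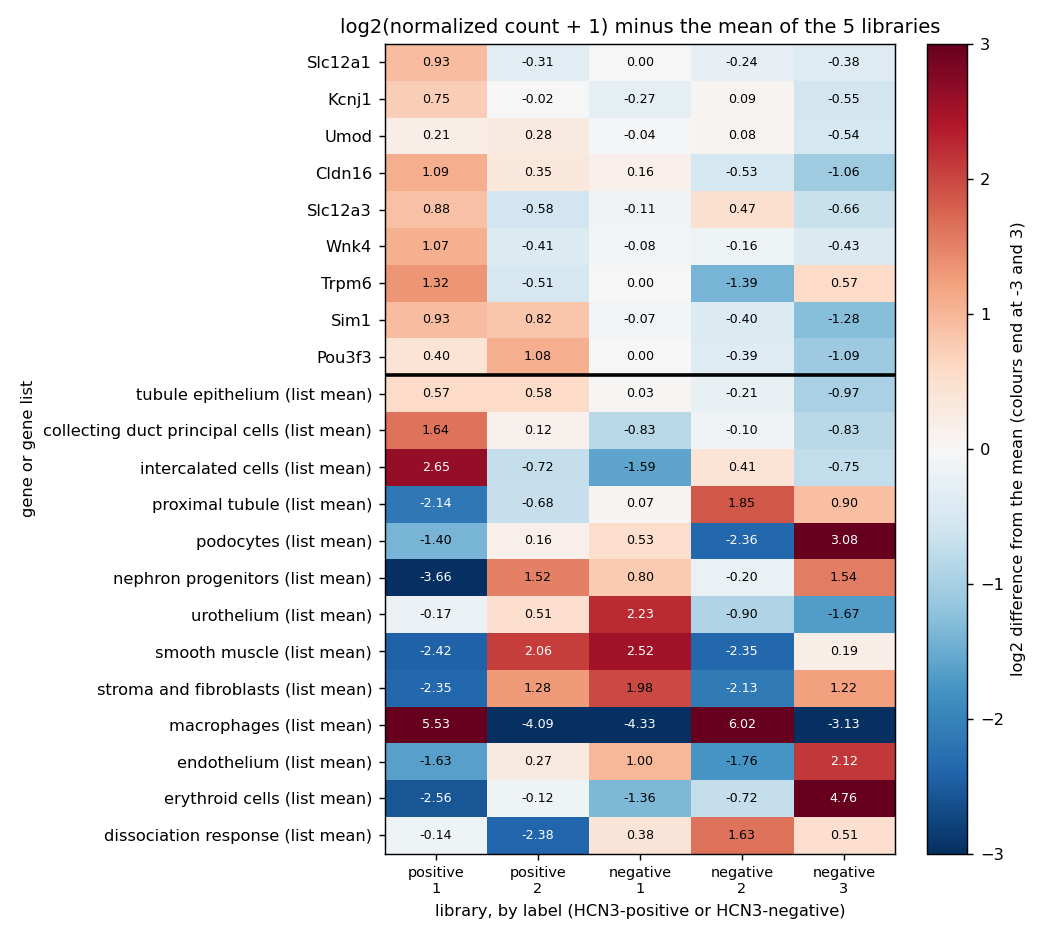
Log2(normalized count + 1) minus the mean of the 5 libraries, for the 9 members tested (rows above the black line) and the mean of marker lists (rows below it), in each library (columns). Red is above and blue below the mean; the general tubule epithelium list lies at 0.57 and 0.58 in the 2 positive-labelled libraries and between -0.97 and 0.03 in the 3 negative-labelled ones, while the macrophage list divides the libraries across the labels.

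Set against epithelial transcripts of the same library, 6 of 9 members had a lower mean in the positive-labelled libraries, as had most genes of the whole table. Cdh16 encodes a cadherin of kidney tubules and collecting ducts, and Epcam an adhesion molecule of epithelia. The ratio of reads to Cdh16 had a higher mean in the positive-labelled libraries for 3 of 9 members, and so had the ratio to Epcam, beside 7.59% and 6.80% of all genes. In both cases these were Cldn16, Sim1 and Pou3f3. The median ratio of the means, labelled positive over labelled negative, was 0.796 for Cdh16 and 0.755 for Epcam. Both references were themselves higher by label, with positive-labelled means 1.87 times (Cdh16) and 2.03 times (Epcam) the negative-labelled ones. A gene without a difference by label would thus also have a lower ratio in the positive-labelled libraries.

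Slc12a1 reads came to 126% and 84.6% of Cdh16 reads in the positive-labelled libraries, and to 166%, 96.3% and 156% in negative-labelled ones. The groups overlapped, with the lower mean in the positive-labelled group. Kcnj1 reads came to 24.5% and 22.9% of Cdh16 reads against 30.5%, 26.6% and 30.4%, and Slc12a3 reads to 13.7% and 7.89% against 17.4%, 17.7% and 14.4%. For these 2 genes every positive-labelled library lay below every negative-labelled library, as for 34.7% of all genes. Kcnj1 was the steadiest of the members against Cdh16, with a 1.33-fold range over libraries.

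Sim1 reads came to 13.1% and 9.38% of Epcam reads in the positive-labelled libraries, and to 8.87%, 8.27% and 8.39% in negative-labelled ones. This was the only member whose ratio to Epcam was higher in every positive-labelled library, as for 0.229% of all genes. Umod reads, at 31.0% and 25.2% of Epcam reads against 35.6%, 45.3% and 55.4%, lay below in both positive-labelled libraries, as for 43.3% of all genes. Against Cdh16 the groups of Sim1 overlapped, at 4.45% and 6.53% against 5.57%, 3.03% and 2.92%. Pou3f3 reads came to 7.69% and 9.61% of Epcam reads against 7.95%, 7.10% and 8.19%, so its groups overlapped too, and its 1.35-fold range was the narrowest of the ratios to Epcam. Against both references the groups of Pou3f3 overlapped, with positive-labelled means 1.12 (Epcam) and 1.34 (Cdh16) times the negative-labelled ones. Those of Sim1 overlapped against Cdh16 only. Both references were themselves higher by label, so overlap of a ratio cannot show what part epithelial content had in either difference. That part was not tested.

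**Figure D4:**
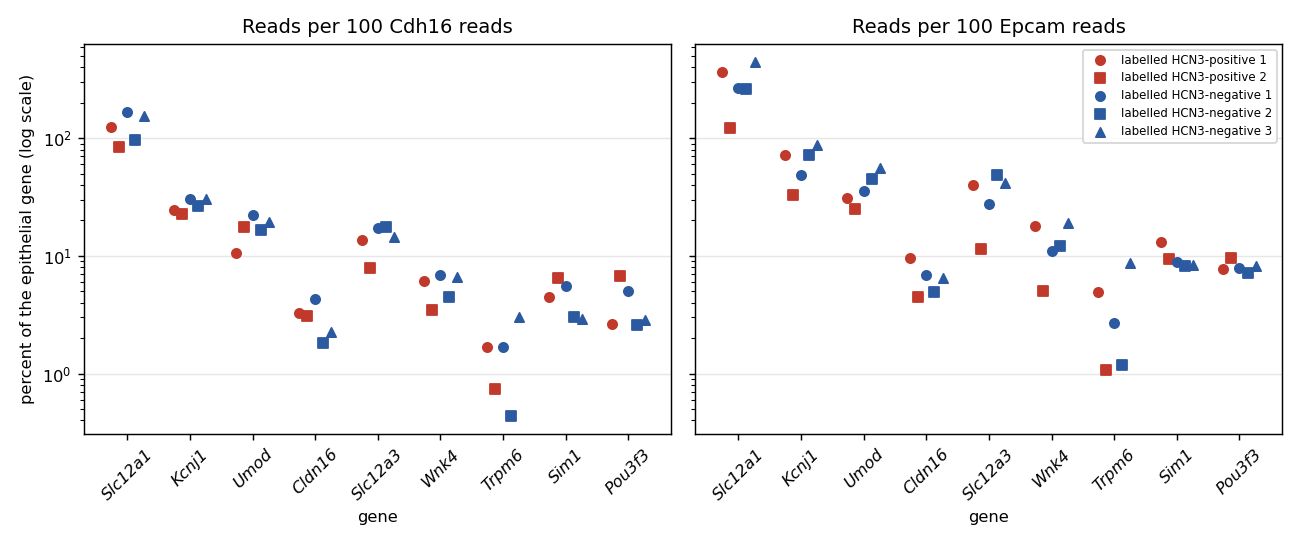
Reads of each of the 9 members (horizontal axis) per 100 reads of Cdh16 (left) or Epcam (right) in the same library (percent, log scale), with 1 point per library, positive-labelled in red and negative-labelled in blue. Slc12a3 and Kcnj1 against Cdh16 and Umod against Epcam have both red points below all blue points, and only Sim1 against Epcam has both above.

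The balance of the distal convoluted tubule to the thick ascending limb cotransporter set 1 library apart. Slc12a3 reads came to 10.9% and 9.32% of Slc12a1 reads in HCN3-positive 1 and 2, and to 10.5%, 18.4% and 9.28% in HCN3-negative 1, 2 and 3. Apart from HCN3-negative 2, the ratio thus lay between 9.28% and 10.9% although Slc12a1 itself ranged 2.48-fold. The library labelled HCN3-negative 2 also had the highest mean level of the macrophage, proximal tubule and dissociation response lists. They lay 6.02, 1.85 and 1.63 above the mean of the libraries (log2). It had the lowest level of the podocyte and endothelial lists, at -2.36 and -1.76. The part of any of these in the ratio was not tested.

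The authors' deposited table makes its own comparison, between sets of libraries that differ from the labels. Its fold matches, in each of the 18047 rows with summary rows included (relative tolerance 0.01), a ratio with HCN3-positive 1 and HCN3-negative 2 averaged as denominator and the remaining 3 libraries averaged as numerator. The deposited table is named for HCN3- against HCN3+, but it does not say which side is HCN3-positive. Its division and the titles thus disagree on which libraries belong together. Which of them is right cannot be settled from these data, and every direction by label is uncertain to that extent. Of the 10 members, 1 had an adjusted p under 0.05 in the authors' deposited table, beside 14.2% of all genes, and this was Slc12a3. In the authors' deposited table its level in the numerator libraries was 0.461 times that in the pair, with an adjusted p of 0.0440. Both libraries of the pair lay above the other 3 for Slc12a3 and Kcnj1, 2 of the 9 members, beside 23.5% of all genes. In the authors' deposited table Kcnj1 was 1.65 times and Slc12a1 1.60 times higher in that pair, with adjusted p of 0.322 and 0.666. Sim1 and Pou3f3 differed by 1.28 and 0.870 times, with adjusted p of 0.986 and 0.979 in the authors' deposited table.

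The difference by label was also read within these sets. In the pair with macrophage transcripts, the positive-labelled library was higher than the negative-labelled library for each of the 9 members, beside 46.8% of all genes, from 1.09-fold for Umod to 6.63-fold for Trpm6, with 1 library a side and no replicate. In the other 3 libraries, HCN3-positive 2 lay above both negative-labelled libraries for Umod, Kcnj1, Cldn16, Sim1 and Pou3f3, 5 of 9 members, beside 28.6% of all genes. These 5 of 9 members lay above 0, beside 47.2% of all genes, and the median log2 fold change was 0.39. With the set as a covariate beside the label, limma gave 1.43 for Sim1, 1.27 for Pou3f3 and 1.15 for Cldn16 (log2), each with an adjusted p of 1.00.

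Of the wider pathway lists, 0 genes passed in limma in either direction, and the lists did not all run as the members did. The thick ascending limb and distal convoluted tubule lists were highest, as the members were (0.84 above the mean of the libraries, log2), in HCN3-positive 1, at 0.51 and 0.77. The transcription factor list was highest in HCN3-positive 2 (0.86) and lay at -0.11 in HCN3-positive 1, and the thin limb list was highest in HCN3-negative 1 (0.87). Of 18 thick ascending limb genes tested, 4 of them members, 16 lay above 0 with a median of 0.53. The largest change on that list ran the other way, for Egf at a log2 fold change of -1.69. Its normalized counts were 53.6 and 154 against 236, 151 and 719, with overlap. The tight junction partner of claudin-16, Cldn19, had normalized counts of 768 and 829 against 412, 532 and 245, without overlap of the groups. Tmem72 had 1745 and 908 against 409, 852 and 533, and the sodium pump subunit Atp1b1 had 15900 and 8424 against 8642, 7033 and 5120. Of 20 distal convoluted tubule and WNK pathway genes tested, 3 of them members, 18 lay above 0 with a median of 0.57. Sgk1 ran the other way, at 4907 and 2715 against 6723, 3428 and 11502, with overlap. Without the members, 12 of 14 thick ascending limb genes and 15 of 17 distal convoluted tubule genes lay above 0, with medians of 0.51 and 0.59. Calb1, a calcium-binding protein of the distal tubule and collecting duct, had 9099 and 11330 against 6907, 9092 and 3008. The basolateral potassium channel Kcnj10 had 975 and 261 against 130, 485 and 116, and the ubiquitin ligase Nedd4l 4446 and 2281 against 1933, 2406 and 2053.

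Of 16 distal nephron and kidney transcription factors tested, Sim1 and Pou3f3 among them, 13 lay above 0 with a median of 0.59 (11 of 14 and 0.52 without both). Pax2, a regulator of kidney epithelium that is also on the epithelial list, had 161 and 270 in the positive-labelled libraries against 57.0, 72.1 and 62.3 in negative-labelled ones. Emx2, a homeobox factor of the urogenital epithelium, had 586 and 1214 against 487, 334 and 227. Tfap2b, a factor of the distal nephron, had 1125 and 1392 against 786, 806 and 397. All 3 separated the labels, and Pax2 and Emx2 were, like Pou3f3, highest in the library labelled HCN3-positive 2. Of 6 thin limb genes, 4 lay above 0 with a median of 0.40, and Aqp1, a water channel that the proximal tubule, descending thin limb and some endothelia share, had 471 and 782 against 1022, 969 and 1819, below in both positive-labelled libraries. The 3 macula densa genes (median -0.21) are named with their values known. Ptgs2, a cyclooxygenase, had 52.2 and 236 against 303, 414 and 243, and Pappa2, a protease, had 498 and 1305 against 1231, 679 and 626, with overlap. Nos1, a nitric oxide synthase, had 0 reads in HCN3-positive 1 and HCN3-negative 1, so its fold change has little behind it.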

How the data were processed

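The authors deposited 1 table of 18044 genes with, per library, read counts divided by a size factor (signal columns, per the file headers), a fold and log2 fold change between unnamed groups, and the p-value of that comparison, raw and adjusted. The 2 columns of group means were not used. The submitters' processing notes name TopHat2 2.0.11, HTSeq 0.6.1p2, DESeq 1.18.0 and mm10. The Clontech and Nextera XT chemistry of the labels' protocols is not stated to keep strand. The 3 summary rows of the read counter were left out of tests. Whole reads were recovered by dividing by each library's smallest value above 0, and 100% of values came out whole within 0.01.

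Labels were compared with limma 3.58.1 (R 4.3.3, trended prior) on log2(value + 1). Genes averaging 5 or more entered, p-values were adjusted by Benjamini-Hochberg and the threshold was 0.05. The added 1 understates folds of low genes. The limma step was tested on simulated counts with known changes. On recovered reads, edgeR 4.0.16 and DESeq2 1.42.0 were alternatives, edgeR calling 0 genes and DESeq2 10. Places, lengths and overlaps come from GENCODE M21 (GRCm38, the same build as mm10), and promoters from RefSeq. Which gene models the authors counted on is not stated in these sources. Libraries were grouped by title. Members and gene lists were chosen with earlier results of these data known. By rule, list genes named were those that passed or up to 3 by smallest p, beside the epithelial references. Other list genes were named with their values known. The 5 nearest genes were taken by root mean square difference among genes with a mean of at least 100.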

Additional observations from a re-analysis of the deposited data

Results flagged for a closer look

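The Trpm6 difference by label ran in opposite directions in the sets of libraries that the deposited table compares. In the pair with macrophage transcripts the library labelled HCN3-positive 1 lay 2.71 (log2) above HCN3-negative 2, and in the other 3 libraries HCN3-positive 2 lay 0.80 below the mean of HCN3-negative 1 and 3 (log2 difference of -0.80), and below each of them. The pair holds 1 library a side, and the difference between the sets was not tested.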

How the results depend on the processing

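Over all alternatives run, 0 members passed; the count of genes called was 0 except with DESeq2 (10). Pseudocounts of 0.5 and 5, no filter, a minimum mean of 20, TMM scaling, edgeR, DESeq2 and the set covariate kept the 9 members above 0 (without a filter Pvalb was also tested, and lay below 0). Leaving out 1 library gave 5 to 9 members above 0 and medians of 0.23 to 1.13 (log2); the low count came without HCN3-positive 1 and the high median without HCN3-positive 2. Using only the 3 libraries of the larger side of the deposited table's division also gave 5 members above 0. Directions turned without HCN3-positive 1 for Slc12a1 (-0.10), Slc12a3 (-0.48), Trpm6 (-0.24) and Wnk4 (-0.19), where fewer samples enter. They turned with the larger side alone for Slc12a1 (-0.12), Slc12a3 (-0.20), Trpm6 (-0.80) and Wnk4 (-0.15), and without HCN3-negative 3 for Slc12a3 (-0.034). Over the fits without 1 library, Slc12a1 ran from -0.10 to 1.13, Slc12a3 from -0.48 to 0.98, Trpm6 from -0.24 to 1.59 and Wnk4 from -0.19 to 1.29. The labels number the libraries, and same-numbered libraries did not deviate together from their group means (correlations of -0.53 and -0.69). The deviations of HCN3-positive 1 and 2 mirror each other, so these correlations are not independent and cannot exclude pairing by number. With the replicate number as a block, Slc12a3 turned to -0.034, 8 members lay above 0 with a median of 0.45, and 0 genes passed; that fit rests on replicates 1 and 2, since HCN3-negative 3 has no partner. Where 1 positive library is left, it is assumed to vary like the negative ones. Trpm6 and Pvalb rest on the fewest reads.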

Other observations

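The 5 genes whose library profile lay nearest to the mean profile of the 9 members tested, among 12874 genes with a mean normalized count of at least 100, were Ndufaf5, Atp1b1, Fancb, Alg13 and Sgms2, at root mean square differences of 0.06 to 0.11 (log2) over 5 libraries. Atp1b1, a sodium pump subunit, is also on the thick ascending limb list, while Ndufaf5 is an assembly factor of mitochondrial complex I and Fancb belongs to the Fanconi anemia DNA repair pathway. For Ndufaf5 the normalized counts were 634 and 388 (positive-labelled) against 352, 324 and 255 (negative-labelled). Sgms2, a sphingomyelin synthase, had 1979 and 1066 against 877, 875 and 737. With so few libraries, likeness of profile is a description only.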
